A study of Mus musculus with 12 samples.

Results

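Cytosolic ribosomal protein genes encode the proteins that, together with ribosomal RNA, build the small and large subunits of the ribosome. Members were taken by gene symbol: Rpl or Rps followed by digits and at most 1 letter, together with the stalk genes Rplp0, Rplp1 and Rplp2, and with Rpsa, Rps4x, Rps27l and Rpl22l1. Rps6k kinases and symbols marked as pseudogenes were left out. The array carried 82 such genes on 177 probes. Tested were probes whose signal exceeded background clearly on every array of 1 or more groups, which left 80 genes and 171 probes among 18266 genes and 35230 probes. Of the 80 genes, 32 belong to the small subunit, 3 to the stalk of the large subunit and 45 to the rest of the large subunit. Rpl10l and Rpl3l, copies best known from testis and from striated muscle, were not tested, because their probes were well above background on 0 and 1 of 12 arrays.

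Ribosomal protein messages are among the most abundant in every cell and are made in step with each other. Most begin with a terminal oligopyrimidine (TOP) tract, through which the TOR kinase pathway and the RNA-binding protein Larp1 govern their translation and stability. In neurons, ribosomes supply both the cell body and the synapses, and a few proteins have further tasks: Rpl5 and Rpl11 bind Mdm2 when ribosome assembly fails, Rps6 is the substrate by which TOR activity is usually read, and Rps27a is made as a fusion with ubiquitin.

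Hypothalamus RNA of 12 male C57BL/6 mice was hybridized to single-color Agilent arrays, with 3 arrays in each of 4 groups. The wild-type control group (WT) and the Asmt-knockout control group (KO) did not swim, and the wild-type exercise group (exercised WT) and the Asmt-knockout exercise group (KE) went through a swimming program. Knockout mice were homozygous for a 20 bp deletion made with CRISPR/Cas9 in C57BL/6 zygotes, and the founders were backcrossed for 3 generations to wild-type littermates. The labels give an age of 6 to 7 weeks for every group. The study gives this as the age at which the exercise period began. Training then ran for several weeks, so the tissue was taken at a later age. Asmt makes the last enzyme of melatonin synthesis, and the study states that C57BL/6J mice have low Asmt activity from birth. The probe of Asmt was well above background on 0 of 12 arrays, so that the arrays gave no check of the genotype.

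The arrays lay on 2 slides, and this touched every comparison between them. Slide 1 carried WT 1 to 3, KO 1 and KO 2. Slide 2 carried KO 3 and all exercised WT and KE arrays. Swimming and slide were therefore confounded in exercised WT versus WT, and in KE versus KO only KO 3 bridged them. A fit with slide as a block takes its slide difference from KO 3 against KO 1 and KO 2 alone. In exercised WT versus WT its value is the change minus that difference, so it rests on a single knockout array. In KE versus KO it sets KE against KO 3 alone, and in KO versus WT it sets KO 1 and KO 2 against WT. All 20 markers of hypothalamic neurons were detected, against 2 of 8 markers of the anterior pituitary, and 61.6% to 67.9% of the spots of an array were detected clearly above background. Values are log2 normalized signals averaged over the tested probes of a gene, and a difference of 1 is a 2-fold change. In whole tissue, fewer cells of a type and less RNA per cell cannot be told apart.

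Probes of the same member went different ways, so 60-letter probes of 4 genes are shown before the values. For each the last 30 letters are printed from 5′ to 3′ in the sense of the message, and capitals mark the polyadenylation signal, AATAAA or ATTAAA. Positions are those of the array annotation (mm9), and a probe that crosses an intron spans more than its own length.
Rpl13, nearest the 3′ end, chr8:125629070-125629129, plus strand: taattccgtgttggagagttgcAATAAAtt
Rpl13, nearest the 5′ end, chr8:125627816-125628964, plus strand: atccggaatgtgtacaaaaaggaaaaggcc
Rplp1, nearest the 3′ end, chr9:61761086-61761145, minus strand: ttggccAATAAAgagctgaacctgtaaaaa
Rplp1, nearest the 5′ end, chr9:61761276-61761701, minus strand: gagcctcatctgcaatgtaggggctggtgg
Rpl3, nearest the 3′ end, chr15:79908295-79908445, minus strand: gaccactcaagaaagatcgcattgccaaga
Rpl3, nearest the 5′ end, chr15:79912877-79912936, minus strand: cttccaagcccgttcacctcacagcctttc
Rps24, nearest the 5′ end, chr14:25311190-25312666, plus strand: agaacagcgaaaggaacgaaagaacagaat
Rps24, between the ends, chr14:25314669-25314728, plus strand: ctagactccttgttactgatgtagtagacc
Over its 60 letters, the upper probe of each pair holds more A than the lower. In Rpl13 this is 24 against 20 A, although the 30 letters printed hold 9 against 13. Rps24 is shown because its probe with more A lies nearest the 5′ end, whereas that of the other 3 genes lies nearest the 3′ end.

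No ribosomal protein gene passed Benjamini-Hochberg adjustment over all genes in limma in any comparison (0 of 80 for KO versus WT, exercised WT versus WT, KE versus KO and KE versus exercised WT and for the swimming by genotype interaction), and neither did any other gene (0% of 18266 in each comparison). The unadjusted counts stand with each comparison. The per-gene test of the study's methods, adjusted in the same way, called 6 members (1.3% of all genes) in exercised WT versus WT and 0 in the others. A limma fit of those groups alone also called 6 there (5.05%), and array weights called 19 there (12.4%) and 41 in KE versus KO (29%). The median over members lay near 0. Its log2 change was 0.010 for KO versus WT, -0.013 for exercised WT versus WT, -0.044 for KE versus KO and -0.029 for KE versus exercised WT, beside -0.008, -0.037, -0.041 and -0.012 over all genes tested. The SD between arrays of a group of the per-array member median was 0.020. The median within-group SD was 0.074 for members against 0.117 for all genes. Members were also brighter, with a median signal of 14.9 against 8.68. More of them were averages of 2 or more tested probes (59 of 80 members, against 7920 of 18266 genes). The SD was not compared at equal signal or number of probes. The 95% interval of the difference lay inside 0.5 on the log2 scale either way, a 1.41-fold change, for 77 of 80 members for KO versus WT, 69 for exercised WT versus WT, 72 for KE versus KO, 76 for KE versus exercised WT and 73 in the interaction. No member reached a 2-fold change with an unadjusted p of at most 0.05 in any of these comparisons (0 members), against 0.175%, 1.22%, 0.651% and 0.192% of all genes, and 0.515% in the interaction.

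**Figure D1:**
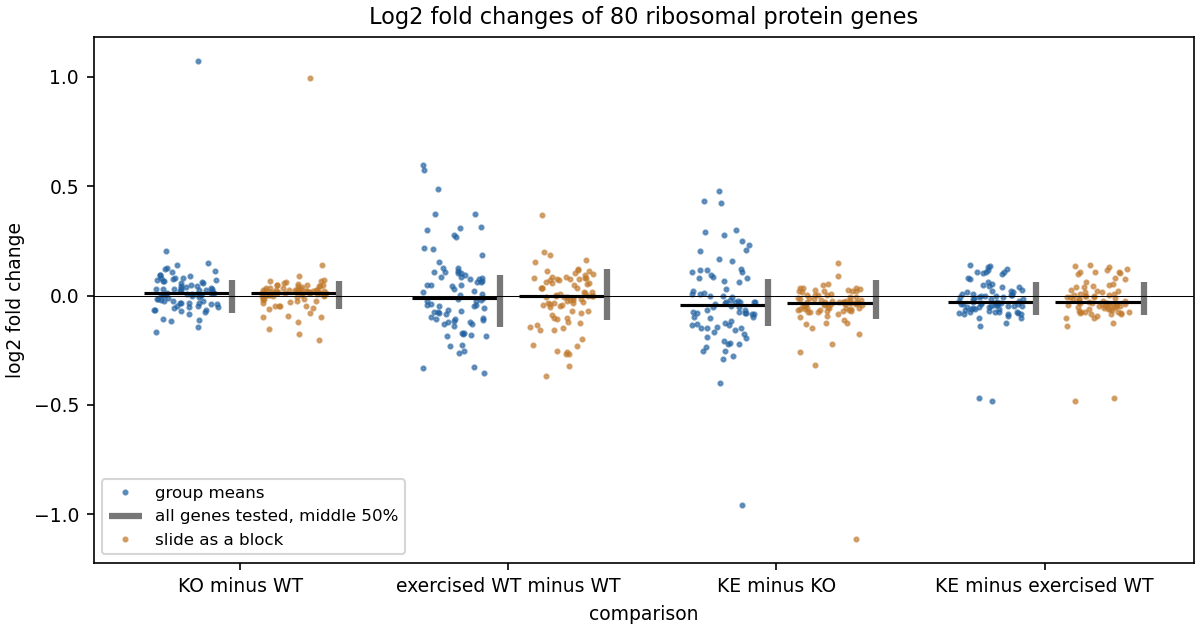
Log2 fold changes of the 80 ribosomal protein genes (points) in 4 comparisons, from the group means (blue) and with slide as a block (orange). Black lines mark the members' median and grey bars the middle 50% of all genes tested. The points spread most in exercised WT minus WT and KE minus KO of the group means, and the medians stay between -0.044 and 0.013.

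KO versus WT compares the knockout with wild type in mice that did not swim. No member had an unadjusted p under 0.05 (0 of 80, against 2.68% of all genes higher and 2.78% lower), nor with slide as a block (0 of 80, against 3.35% and 2.5%). In 2 members all KO arrays lay above all WT arrays and in 3 below, 2.50% and 3.75% of members, beside 3.92% and 4.99% of all genes. The highest values were those of Rpl39l (1.07, standard error 0.51, adjusted p = 0.840 from limma), which was tested through the KO arrays alone and is described with the copies, Rpl14 (0.20) and Rpl4 (0.15), and the lowest those of Rps12 (-0.17), Rps13 (-0.14) and Rps15 (-0.12). Rpl14 and Rpl4, both of the large subunit, had their highest KO value on KO 3: Rpl14 read 15.63, 15.77 and 16.23 on KO 1 to 3 and 15.67, 15.75 and 15.60 on WT 1 to 3. Rpl4 read 14.81, 14.59 and 15.45 in KO and 14.69, 14.96 and 14.75 in WT. For both genes KO 1 and KO 2 lay within or near the WT range and KO 3 above it. Without KO 3, the change was 0.03 for Rpl14 and -0.10 for Rpl4.

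Exercised WT versus WT asks what swimming does in wild-type mice. At an unadjusted p under 0.05, 12 members were higher and 15 lower, 15% and 18.8% of members beside 10.6% and 14% of all genes. In 20 members every exercised WT array lay above every WT array and in 26 below, 25% and 32.5%, beside 14.2% and 21.6% of all genes. KO 3, the array of a mouse that did not swim, lay on the slide of the exercised WT arrays. With the 75th percentile as scaling, 3 members were higher and 24 lower at an unadjusted p under 0.05 (9.88% and 14.7% of all genes), and with slide as a block 2 and 1 (2.96% and 3.01% of all genes).

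Rpl13a, a large-subunit protein that also takes part in interferon-dependent silencing of translation, gave the highest value among members detected on all arrays. It read 14.47, 14.40 and 14.35 on WT 1 to 3 and 15.08, 14.95 and 14.92 on exercised WT 1 to 3, and 14.37, 14.04 and 15.10 on KO 1 to 3. All exercised WT arrays lay above all WT arrays, and KO 3 lay with exercised WT. The difference was 0.58 (standard error 0.21, adjusted p = 0.141 from limma), and it was -0.32 with slide as a block.

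Rpl4 and Rps24, a gene mutated in Diamond-Blackfan anemia, followed the same course. Rpl4 read 15.36, 15.34 and 15.17 on exercised WT 1 to 3, a difference of 0.49 (standard error 0.18, adjusted p = 0.146 from limma). Rps24 read 12.68, 12.84 and 12.67 in WT and 13.21, 13.04 and 13.05 in exercised WT, a difference of 0.37 (standard error 0.15, adjusted p = 0.178 from limma). For both genes the groups did not overlap. Rps24 read 13.22 on KO 3, against 12.61 and 12.54 on KO 1 and KO 2, and with slide as a block the changes were -0.26 for Rpl4 and -0.27 for Rps24.

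The lowest values in exercised WT versus WT were those of 3 small-subunit genes. Rps13 differed by -0.35 (standard error 0.11, adjusted p = 0.121 from limma), with 11.75, 11.71 and 11.68 in WT and 11.42, 11.41 and 11.25 in exercised WT. Its dimmer probe was at -0.57 and its brighter one at -0.14. Rps2 differed by -0.33 (adjusted p = 0.102 from limma), with 14.81, 14.76 and 14.78 in WT and 14.42, 14.50 and 14.44 in exercised WT. On KO 3 both were at the exercised WT level, 11.28 for Rps13 and 14.43 for Rps2, and with slide as a block they were at 0.08 and 0.04.

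Rps4l, an autosomal copy of the small-subunit gene Rps4x, differed from these. It read 13.04, 13.12 and 13.09 in WT, 12.74, 12.94 and 12.60 in exercised WT, 12.93, 13.00 and 13.01 in KO and 12.77, 12.89 and 12.97 in KE. Exercised WT lay below WT with no overlap, and KO 3 read like KO 1 and KO 2. The difference in exercised WT versus WT was -0.33 (standard error 0.08, adjusted p = 0.101 from limma) and -0.37 with slide as a block (unadjusted p = 0.0415, adjusted p = 0.816 from limma). The knockout mice gave -0.10 (KE versus KO).

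KE versus KO asks the same in knockout mice. At an unadjusted p under 0.05, 9 members were higher and 20 lower, 11.2% and 25% of members beside 6.95% and 13.5% of all genes. In 3 members all KE arrays lay above all KO arrays and in 20 below, 3.75% and 25%, beside 5.86% and 16.4% of all genes. Rpl4 (0.48), Rps24 (0.43) and Rpl13a (0.42) were again highest, and KO 3 read 15.45, 13.22 and 15.10 for them beside KE ranges of 15.35 to 15.47, 13.11 to 13.28 and 14.88 to 14.99. At this level the slide as a block left 0 members higher and 2 lower (3.94% and 4.27% of all genes), and 75th percentile scaling gave 2 and 20 (9.18% and 11.7% of all genes). Rps9 read 12.88, 12.79 and 12.54 in KO and 12.46, 12.41 and 12.47 in KE, a difference of -0.29 (standard error 0.08, adjusted p = 0.136 from limma), and -0.10 with slide as a block. The KE arrays of Rps9 lay below all KO arrays, KO 3 being nearest to them.

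The number of members called also changed on leaving out KO 3. Without it, adjustment left 39 members in KE versus KO, 16 higher and 23 lower, beside 9.2% and 12.3% of all genes. Without it, exercised WT versus WT, whose values do not change, called 12 members higher and 11 lower (7.6% and 6.86% of all genes), since the spread is shared between groups. In both fits the swimming arrays then lay on slide 2 and all others on slide 1, so that swimming and slide cannot be told apart. Within slide 2, where KO 3 stood alone against the KE arrays and was assumed to vary like the other groups, 0 members passed adjustment and 1 had an unadjusted p under 0.05.

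KE versus exercised WT compares the genotypes after swimming on 1 slide. At an unadjusted p under 0.05, 0 members were higher and 1, Rps27a, was lower (2.1% and 5.02% of all genes). With slide as a block, 0 were higher and 3 lower (3.7% and 6.71%). In 5 members all KE arrays lay above all exercised WT arrays and in 19 below, 6.25% and 23.8% beside 7.45% and 11.9% of all genes. The 19 lower members included Rpl10 (-0.14, standard error 0.07, adjusted p = 0.730 from limma), whose protein completes the large subunit late in its assembly, Rps21 (-0.12), Rpl3, Rplp0, Rplp2, Rps9 and Rps27. The 5 higher ones included Rpl13 (0.13) and Rps20 (0.14). Rpl4 was at 0.14 with overlapping groups. Probes with few and with many A parted in this comparison too, with values given beside those of the other comparisons.

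The interaction asks whether swimming moved a gene differently in the genotypes. Its median over members was -0.033, beside -0.011 over all genes. At an unadjusted p under 0.05, 0 members were above 0 and 1, again Rps27a, below (3.21% and 4.83% of all genes), and 1 and 4 with slide as a block (4.08% and 6.98%). The extremes were Rpl39l (-1.56), Rps27a (-0.48) and Rps27l (-0.16) on the low side and Rps4l (0.23), Rps13 (0.22) and Rps2 (0.08) on the high side. These p-values measure the spread between single arrays only.

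Rps27a, which yields ubiquitin and a small-subunit protein from 1 message, gave the lowest unadjusted p of any member. Its gene value was 10.22, 10.40 and 10.41 on KE 1 to 3, 10.83, 10.76 and 10.85 on exercised WT 1 to 3, 10.78, 10.78 and 10.66 on KO 1 to 3 and 10.78, 10.67 and 10.76 on WT 1 to 3. All KE arrays lay below all others. The difference was -0.47 in KE versus exercised WT (standard error 0.06, unadjusted p = 2.76e-05, adjusted p = 0.240 from limma) and -0.40 in KE versus KO (adjusted p = 0.0996). With slide as a block, which sets KE against KO 3 alone, it was -0.32 in KE versus KO. The interaction was -0.48 (adjusted p = 0.414).

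The 2 probes of Rps27a did not share this. The dim probe, nearest the 5′ end, read 3.78, 4.21 and 4.16 on KE 1 to 3 and between 4.62 and 5.01 on the other 9 arrays, a difference of -0.86 in KE versus exercised WT and -0.74 in KE versus KO. It was well above background on 2 of 3 arrays in WT and KE and on 3 of 3 in KO and exercised WT, through which it was tested. The bright probe, nearest the 3′ end, read 16.67, 16.59 and 16.65 on KE 1 to 3 and between 16.65 and 16.77 elsewhere, with overlap and with differences of -0.08 and -0.06. The difference of the gene thus came from a probe close to background. With detection required on all 12 arrays, no member was left at an unadjusted p under 0.05 in KE versus exercised WT (0 of 79).

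**Figure D2:**
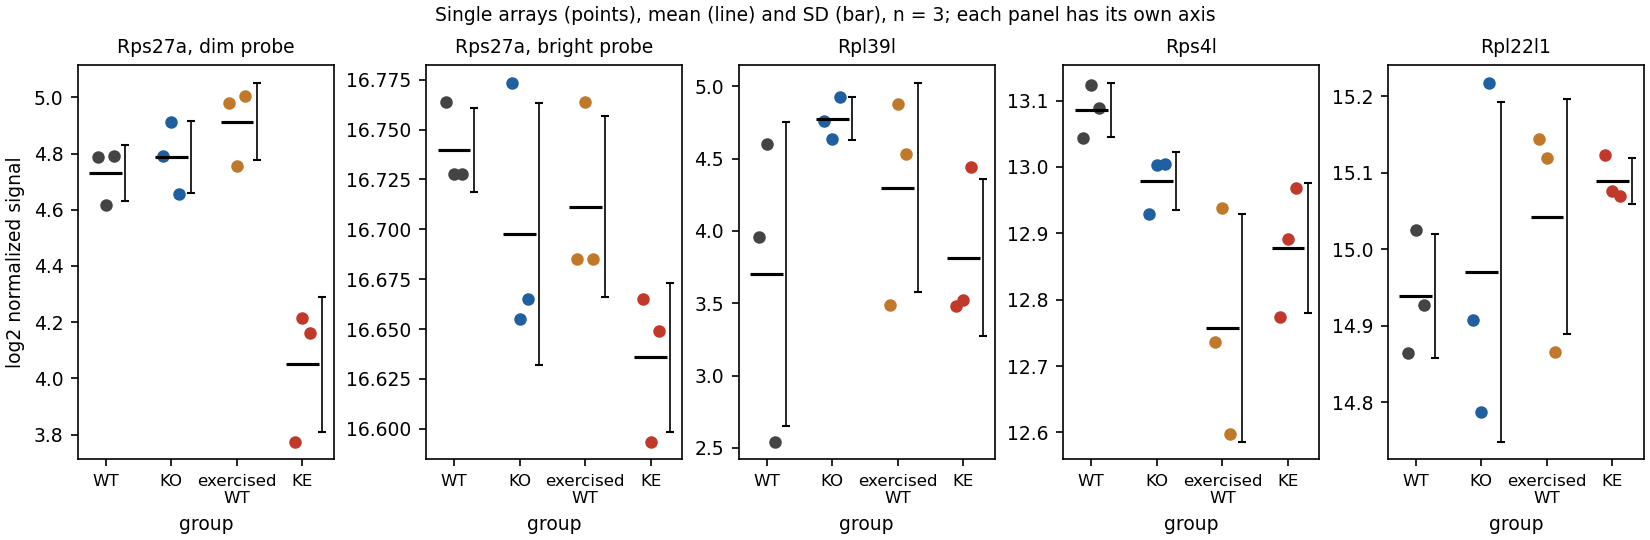
Log2 normalized signal on each array (points) with mean (line) and SD (bar, n = 3) for the 2 probes of Rps27a and for 3 copies, Rpl39l, Rps4l and Rpl22l1. The KE arrays of the dim Rps27a probe sit at 3.78 to 4.21, below all others, and the axis of each panel has its own range.

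Copies of ribosomal protein genes can replace their partners in particular tissues. Rpl39l, an autosomal copy of the X-linked Rpl39, was well above background on 2 WT, 3 KO, 2 exercised WT and 1 KE arrays. It was tested because all KO arrays detected it, so high KO values were a condition of its being tested and its order of groups is a description. It read 3.96, 4.60 and 2.54 in WT, 4.76, 4.63 and 4.93 in KO, 3.49, 4.88 and 4.53 in exercised WT and 3.48, 3.52 and 4.44 in KE. The spread of the other groups was wide, with values of arrays near background, and the difference was 1.07 in KO versus WT and -0.96 in KE versus KO (standard error 0.51 for each, adjusted p = 0.840 and 0.306 from limma). Without WT 3, which had the lowest value, KO versus WT was at 0.49. Rpl22l1, which can take the place of Rpl22, read between 14.79 and 15.22 on all arrays, and its group means differed by at most 0.12 in each of the 4 comparisons, and by -0.27 in exercised WT versus WT with slide as a block. Its partner Rpl22 read 13.51, 13.44 and 13.52 in WT, 13.34, 13.32 and 13.26 in exercised WT, 13.53, 13.50 and 13.32 in KO and 13.26, 13.21 and 13.27 in KE. Rps27l, a p53-induced copy of Rps27, differed by -0.16 in the interaction (adjusted p = 0.751 from limma), and Rps27 itself by -0.06.

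The stalk proteins recruit the elongation factors to the ribosome. Rplp0, their base, read 14.21, 14.14 and 14.18 in WT, 14.47, 14.43 and 14.47 in exercised WT, 14.19, 14.21 and 14.38 in KO and 14.42, 14.41 and 14.41 in KE. All arrays after swimming lay above all others, with KO 3 between. The difference was 0.28 in exercised WT versus WT (adjusted p = 0.101 from limma) and 0.16 in KE versus KO (adjusted p = 0.178), and 0.09 and 0.03 with slide as a block. Rplp1 (0.05 and -0.03) and Rplp2 (-0.02 and -0.03) stayed near 0.

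Among the proteins with further tasks, Rpl11 had lower values after swimming in both genotypes, without passing adjustment, and its probes differed in this. Its gene value read 10.94, 11.08 and 11.08 in WT, 10.97, 10.94 and 10.99 in KO, 10.91, 10.63 and 10.88 in exercised WT and 10.72, 10.68 and 10.79 in KE. All 6 arrays after swimming lay below the 6 others, and KO 3 read like KO 1 and KO 2. The difference was -0.23 in exercised WT versus WT and -0.23 in KE versus KO (adjusted p = 0.128 and 0.160 from limma), and -0.26 in each with slide as a block. The dim probe of Rpl11, with a mean signal of 5.37, was at -0.50 and -0.48, and the bright one, with a mean of 16.40, at 0.05 and 0.01. Rpl5, its partner on Mdm2, was at -0.01 and -0.08, with 1 probe at -0.23 and -0.26 and the other at 0.21 and 0.10. In the same order of comparisons, Rpsa was at -0.05 and -0.03, Rps19 at -0.03 and -0.03, and Rps6 at -0.07 and -0.08. Rpl41, the smallest ribosomal protein, was at -0.17 and -0.15, and 0.09 and 0.02 with slide as a block. Over all members, chosen after the values were seen, 6 (Rpl9, Rpl11, Rpl27, Rpl30, Rpl37a and Rps6) had all 6 arrays after swimming below all 6 others, beside 2.71% of all genes, and 1 (Rplp0) above, beside 0.657%. Rpl11 was among the 6 through its dim probe, since its bright probe overlapped.

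The disagreement between probes was larger than any change of the median. Of the 59 members with at least 2 tested probes, 36 had probes of opposite sign in exercised WT versus WT and 35 in KE versus KO, 61.0% and 59.3%, beside 53.3% and 53.8% of 7920 genes. The median range between the probes of a member was 0.29 in exercised WT versus WT, beside 0.24 over the 7920 genes. For Rpl13 it was 1.55, from 1.26 for the probe nearest the 3′ end to -0.29 for a probe between the ends. The probe nearest the 3′ end read 11.01, 11.66 and 11.36 in WT and 12.83, 12.74 and 12.23 in exercised WT. The probe nearest the 5′ end, at 15.52, 15.69 and 15.65 in WT and 15.75, 15.74 and 15.46 in exercised WT, differed by 0.03. The probe nearest the 3′ end read 11.39, 11.09 and 13.09 on KO 1 to 3, so KO 3 stood with the swimming mice.

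In the other 3 printed pairs the probe with more A had the higher change in both swimming comparisons. In Rplp1 the probe with more A differed by 0.39 in exercised WT versus WT and 0.33 in KE versus KO, and the other by -0.14 and -0.22. In Rpl3, whose product lines the peptidyl transferase centre, the values were 0.33 and 0.25 against -0.28 and -0.29. The probe of Rps24 with more A, which lies nearest the 5′ end, differed by 1.16 and 1.08 and its printed partner by -0.14 and -0.05. The pairs leave out other probes of these genes. The Rpl13 probe annotated to chromosome 4 holds 21 A and was at -0.15 in both comparisons. The Rpl13 probe nearest the 5′ end, with 20 A, was higher, at 0.03 and 0.12. The Rps24 probe nearest the 3′ end, with 19 A, was at 0.25 and 0.49. On KO 3 against the mean of KO 1 and KO 2, all from mice that did not swim, the printed probes with more A differed by 1.85 (Rpl13), 1.73 (Rps24), 0.74 (Rplp1) and 0.31 (Rpl3). At the level of single probes, 26 member probes were higher and 40 lower in exercised WT versus WT at an unadjusted p under 0.05, beside 11.7% and 14.2% of all 35230 probes. In KE versus KO 18 were higher and 53 lower, beside 8.1% and 13%. In both, 0 of 171 passed adjustment in limma, against 0% and 0.0199% of all probes. Probes of Rpl13, Rpl39 and Rps24 (3 probes) reached a 2-fold change in exercised WT versus WT with such a p, beside 2.19% of all probes.

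**Figure D3:**
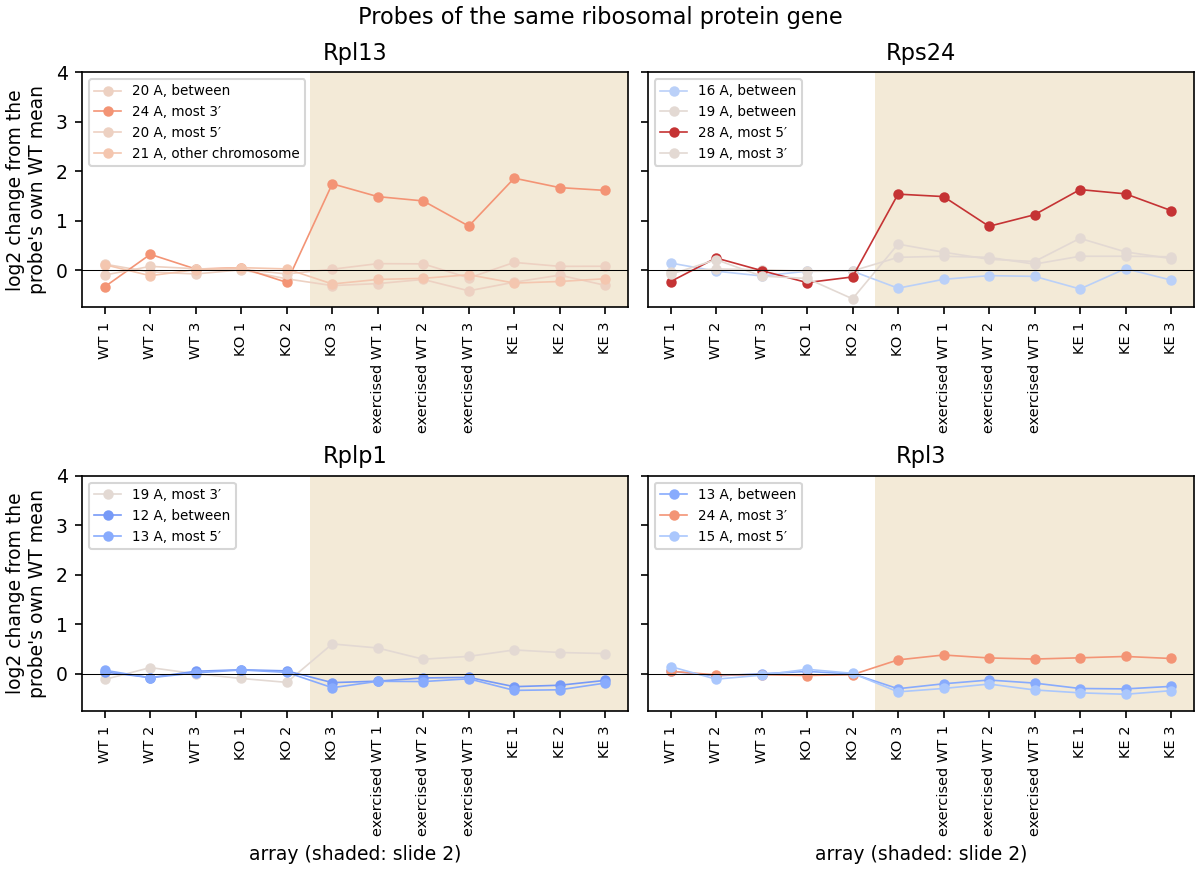
Each line is 1 probe of the named gene, as log2 change from its own mean over the WT arrays on each of 12 arrays; color runs from few A (blue) to many A (red) among its letters, and the shaded arrays lay on slide 2. In all 4 genes the probe with most A steps up from KO 2 to KO 3, by 1.85 against the mean of KO 1 and KO 2 in Rpl13, and stays up in exercised WT and KE.

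The number of A among the 60 letters of a probe went with its change. Member probes were put in 3 classes: 62 A-poor probes with 8 to 16 A, 59 with 17 to 20 and 50 A-rich probes with 21 to 29. In exercised WT versus WT the median log2 change was -0.14, -0.001 and 0.15, with 55 of 62 A-poor probes below 0 and 36 of 50 A-rich probes above 0. In KE versus KO it was -0.15, -0.05 and 0.11. In KE versus exercised WT it was -0.08, -0.03 and 0.03, and in KO versus WT -0.02, -0.005 and 0.09. Across the 171 member probes, Spearman's rho between A content and log2 change was 0.59 for exercised WT versus WT, 0.66 for KE versus KO, 0.58 for KE versus exercised WT, 0.51 for KO versus WT and 0.09 for the interaction. These are descriptions over probes that share arrays, genes and labelling, and the comparisons share groups. Over all 35230 tested probes rho was 0.23 in exercised WT versus WT and 0.24 in KE versus KO, and over the 676 probes at or above the median signal of the member probes, members included, it was 0.54 and 0.60. Both values lay close to those of the member probes.

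On single arrays, the median deviation of A-rich minus that of A-poor member probes lay between -0.29 and -0.10 on the 5 arrays of slide 1 and between 0.01 and 0.23 on the 7 arrays of slide 2. KO 1, KO 2 and KO 3 were at -0.19, -0.23 and 0.22, and exercised WT 3 was lowest on slide 2 at 0.01. The slides did not overlap. Over member probes, the difference of KO 3 from KO 1 and KO 2 had a Pearson r of 0.92 with exercised WT versus WT, which uses none of these arrays (r = 0.76 over all tested probes). What lay behind the slide difference was not tested.

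**Figure D4:**
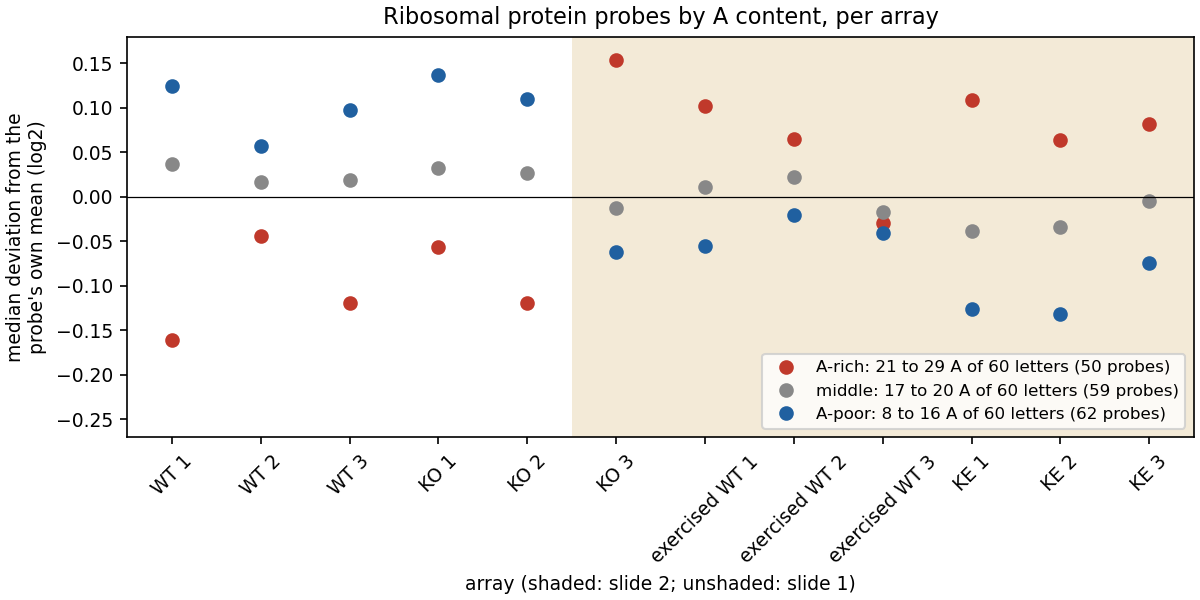
Median deviation of ribosomal protein probes from each probe's own mean over 12 arrays (log2), for A-rich, middle and A-poor probes, per array; shaded arrays lay on slide 2. A-rich probes lie below A-poor probes on all 5 arrays of slide 1 and above them on all 7 arrays of slide 2, KO 3 included.

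**Figure D5:**
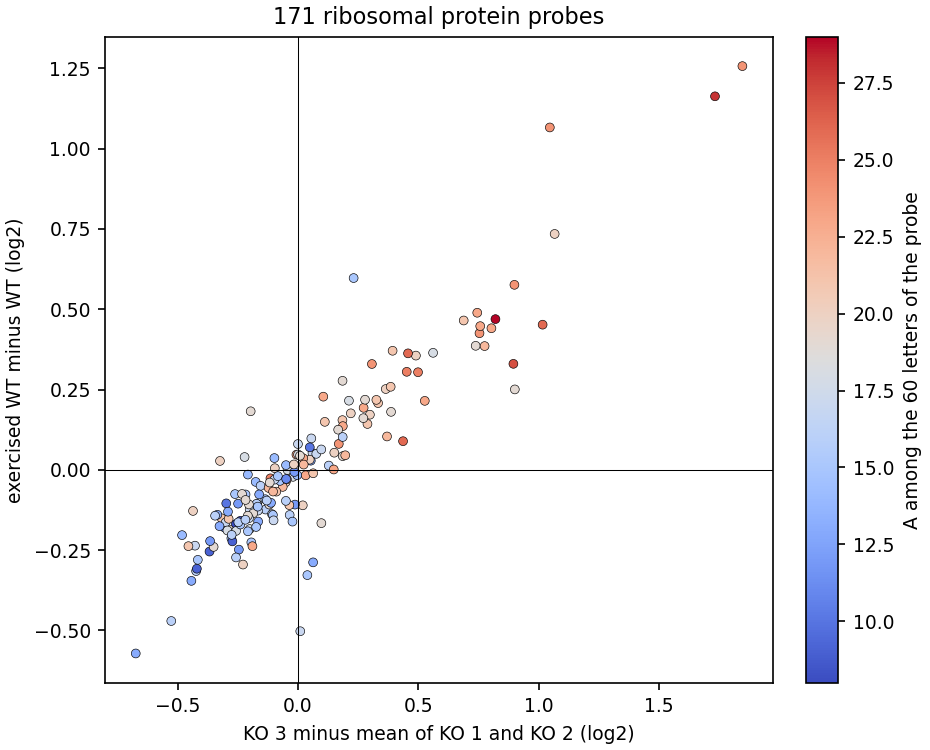
Each point is 1 of 171 ribosomal protein probes, with the log2 difference of KO 3 from the mean of KO 1 and KO 2 on the x axis, exercised WT minus WT on the y axis and the number of A in color. The points follow a rising line (Pearson r = 0.92), with A-poor probes mostly at the lower left and A-rich probes mostly at the upper right.

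Genes called at the level of the gene differed in the same feature. The 12 members higher in exercised WT versus WT had a median of 21.8 A per probe, the 15 lower ones 16 and the 53 others 18. In KE versus KO the medians were 21.2, 15.6 and 18.5 for 9, 20 and 51 members. With A-poor probes alone, 0 members were higher and 20 lower in exercised WT versus WT at an unadjusted p under 0.05, of 49 members with such a probe, beside 6.9% and 20.7% of 10930 genes with one. With A-rich probes alone, 16 were higher and 1 lower, of 38, beside 20.8% and 4.7% of 5360 genes. All genes thus leaned the same way as the members. The split of members by direction thus differed with the probes used.

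Position and the polyadenylation signal followed the same line. Of the member probes 37 (21.6%) held AATAAA or ATTAAA, searched on the printed strand, beside 14.7% of all tested probes. Their median change was 0.18 in exercised WT versus WT and 0.13 in KE versus KO, against -0.08 and -0.10 in the other 134. Over all tested probes it was 0.03 and 0.02 with the signal and -0.06 and -0.05 without. In 57 members with probes at different places, the probe nearest the 3′ end exceeded the one nearest the 5′ end by a median of 0.14 in exercised WT versus WT, and it was the higher of the pair in 43 (75.4%), beside 0.07 and 60.2% of 7816 genes. It also held a median of 2 more A, beside 0 in all genes, so place and A content were not separated here.

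Other genes of ribosome supply gave no call either. No gene of 6 related lists passed adjustment in limma in any comparison (0 genes). Of 6 ribosome parts outside the symbol rule, Rps3a1 was highest, at 0.41 in exercised WT versus WT and 0.36 in KE versus KO, and -0.19 and -0.04 with slide as a block. Of 77 mitochondrial ribosomal proteins, which serve the separate ribosome of mitochondria, 9 were higher and 15 lower in exercised WT versus WT at an unadjusted p under 0.05. These were 11.7% and 19.5%, beside 10.6% and 14% of all genes. In KE versus KO 2 and 20 were (2.6% and 26%, beside 6.95% and 13.5% of all genes), with Mrps6 at -0.35 and Mrpl24 at 0.30. Of 47 ribosome assembly factors 2 and 9 (4.26% and 19.1%), and 0 and 13 (0% and 27.7%), were called in these directions. Dkc1, the pseudouridine synthase of ribosomal RNA, read 7.04 ± 0.03 in WT and 7.50 ± 0.05 in exercised WT (SD, n = 3), a difference of 0.46 (adjusted p = 0.101 from limma), and -0.005 with slide as a block. Mphosph10 was at -0.48 in KE versus KO; the block gave -0.24.

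Upstream of the ribosome, of 15 genes of the RNA polymerase I machinery 1 was higher and 3 lower in exercised WT versus WT at an unadjusted p under 0.05. These were 6.67% and 20%, beside 10.6% and 14% of all genes, with Ubtf, its nucleolar activator, at 0.34. Of 23 genes of the TOR pathway and Larp1 3 were higher and 2 lower (13% and 8.7%). Rheb, the small GTPase that switches TOR on, read 11.86 ± 0.13 in WT, 12.54 ± 0.11 in exercised WT, 12.10 ± 0.50 in KO and 12.70 ± 0.07 in KE (SD, n = 3), a difference of 0.68 in exercised WT versus WT (adjusted p = 0.108 from limma), and -0.18 with slide as a block. Of 17 translation factors with TOP messages 3 were higher and 2 lower (17.6% and 11.8%). Eef1d was at -0.24, and Eef1a1 at 0.26, or -0.32 with the block.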

How the data were processed

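Members and gene lists were chosen with earlier results of these data known. The authors deposited scanner output, an intensity per spot after Agilent Feature Extraction 10.7.1.1 had subtracted background, and a table of log2 values they quantile-normalized. Tables of the authors' own comparisons, which hold fold changes and p-values beside 24 columns of values per sample, were not used. Outlier spots were left out, log2 intensities were quantile-normalized, and tested probes were averaged per gene. All 12 arrays entered 1 limma model (version 3.58.1, R 4.3.3) of the 4 groups with moderated variances, and p-values were adjusted by Benjamini-Hochberg over 18266 genes. No spot was saturated (0 per array). The number of arrays limits the precision. The fit was tested on simulated data. For KE versus KO, 48 of 67 genes changed 1.5-fold among 18259 had an adjusted p under 0.05, and so did 9 unchanged genes. The simulated arrays had independent noise per gene and no slide difference, so this cannot show how the fit fares with the slides of these data. Named were the 3 largest rises and falls per comparison, a list of stalk, Mdm2-binding, ubiquitin-fusion and duplicated members, and the extremes of related lists; levels of different probes were not ranked. The labels do not say that replicates share a batch, and replicate numbers follow the sample titles. Alternatives changed scaling, background, filters, probes of a gene, the slide or replicate block, the test, array weights and single arrays. Slides were read from the scanner output. Sequences are the deposited probe sequences. Values of a few single members are not reported here.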

Additional observations from a re-analysis of the deposited data

How the results depend on the processing

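The count of members with an adjusted p under 0.05 was 0 in exercised WT versus WT and in KE versus KO by group means. It became 6 with the methods' t-test (1.3% of all genes), 6 with only the groups compared (5.05%) and 19 with array weights (12.4%) in the former, and 41 with array weights (29%) in KE versus KO. Leaving out 1 array gave 0 to 23 in exercised WT versus WT and 0 to 39 in KE versus KO, the highest without KO 3, and 0 in the other comparisons. The median log2 change of members was -0.052, 0.026 and 0.010 with 75th percentile scaling in exercised WT versus WT, KE versus exercised WT and the interaction, 0.0075 with normexp in exercised WT versus WT and -0.072 by the brightest probe in KE versus KO. Alternatives on the letters of the probes were added after the data were seen. With at most 16 A it was -0.024, -0.13, -0.15 and -0.076 in KO versus WT, exercised WT versus WT, KE versus KO and KE versus exercised WT, for 21 or more A 0.10, 0.21, 0.20 and 0.040, and without probes holding the signal -0.013, -0.076 and -0.098 in KO versus WT, exercised WT versus WT and KE versus KO. Under the slide block 9 named changes turned sign: in exercised WT versus WT Rps13 (0.076), Rps2 (0.036), Rpl13a (-0.32), Rpl4 (-0.26) and Rps24 (-0.27), in KE versus KO Rpl4 (-0.017) and Rpl13a (-0.18), in KO versus WT Rpl4 (-0.10) and in the interaction Rps2 (-0.046). The fits within slide 1 (KO versus WT) and within slide 2 (KE versus KO) compare the same arrays as the block and repeat its values. Rpl4 was thus again at -0.10 and -0.017, and Rpl13a at -0.18 within slide 2. When single arrays were left out, Rpl4 ranged from -0.10 to 0.33 in KO versus WT and Rps2 from -0.046 to 0.15 in the interaction. The negative values were those without KO 3, and they repeat the block values, which compare the same arrays there. They are not separate checks. The cause of each change of sign was not tested.

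With the replicate number as a block, no comparison called a member (0 in each) and the median comparing exercised WT with WT was -0.013. Correlations of same-numbered arrays of different groups lay between -0.18 and 0.23, with a median of 0.011 and 6 of 18 above 0.1. For arrays with other numbers they lay between -0.24 and 0.22, with a median of -0.018 and 3 of 36 above 0.1. The ranges overlapped, and whether the numbers pair the arrays was not tested. Precision is limited by 3 arrays per group, and dim probes such as those of Rpl39l and Rps27a lay near background.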

Other observations

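The array annotation placed 7 tested probes on another chromosome than that of the gene in RefSeq (GRCm38.p6). They were 1 probe of Rpl13, annotated to chromosome 4 in place of 8, 1 of Rpl36 (X in place of 17), both of Rps27 (9 in place of 3) and 3 of the 4 of Rps29 (2 in place of 12). Ribosomal protein genes have many processed copies across the genome, and a probe that fits several cannot tell their messages apart. In exercised WT versus WT these probes changed by -0.15 for Rpl13, -0.11 for Rpl36, 0.04 and -0.04 for Rps27 and 0.10, 0.22 and -0.01 for Rps29. The probe of Rpl13 was at -0.32 on KO 3 against KO 1 and KO 2, opposite in sign to the probe nearest the 3′ end of that gene (1.85). Leaving these probes out left 79 members, of which 0 passed adjustment in limma in any comparison, and 12 were higher and 15 lower in exercised WT versus WT at an unadjusted p under 0.05, as many as with them.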
